A study of Homo sapiens with 6 samples.

Results

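The 4 human tropomyosin genes, TPM1, TPM2, TPM3 and TPM4, were followed in RNA-seq of 8505C cells, an established anaplastic thyroid cancer (ATC) cell line. The family was chosen because TPM4 was higher in the NUF2-knockdown libraries than in the control libraries. The values of this contrast, and any threshold they pass, therefore only describe its members. All 4 of the 4 members are among the 32985 genes of the deposited table, and all 4 were among the 11725 genes kept by a filter on low values, which asked for a mean FPKM of 1 or more across the 6 libraries. FPKM is the number of fragments per kilobase of gene length, scaled to the depth of the library.

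Tropomyosins are long coiled-coil proteins that pair into dimers and lie end to end along both grooves of the actin filament. There they set which myosins, severing factors and branching factors reach the filament. Each gene gives many isoforms through alternative promoters and alternative exons: TPM1 and TPM2 are best known from striated and smooth muscle, TPM3 from slow muscle and the general cytoskeleton, and TPM4 from the cytoskeleton of non-muscle cells, where its short isoform takes part in stress fibres.

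Cells carried either a control siRNA (siCtrl, labelled WT) or an siRNA against NUF2 (siNUF2, labelled NUF2 knockdown) for 24 h, with 3 libraries in each group and a replicate number from 1 to 3 in each label. The cells were grown in RPMI-1640 with fetal bovine serum, poly(A) RNA was sequenced, and all libraries come from the same cell line, with 1 siRNA sequence described for NUF2. Nothing in the labels says whether the libraries are separate cultures, so p-values measure only the spread between these libraries. No library comes from cells without siRNA. A rise under the NUF2 siRNA and a fall under the control siRNA therefore cannot be told apart. Below, rise and fall mean higher and lower in siNUF2 than in siCtrl cells. The study asked which genes lie downstream of NUF2, a kinetochore protein of the NDC80 complex.

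Total counts per library lay between 61257859 and 69755291. NUF2 itself was at 14.8, 14.5 and 12.2 FPKM in siCtrl cells and at 1.53, 2.05 and 1.56 FPKM in the siNUF2 libraries, lower in every library that carried its siRNA. Of the thyroid markers listed for a check of the cell type, NKX2-1 was at a mean of 18.3 FPKM, whereas TG, PAX8 and FOXE1 stayed under 1 FPKM in every library. The epithelial keratins were high, with KRT7 at a mean of 428 FPKM, and EPCAM and CDH1 were under 1 FPKM in every library. Of the muscle markers listed for this check (DES, MYOD1, TTN, CKM, MYH11, ACTC1 and TNNC1), the highest was TNNC1 at a mean of 0.988 FPKM, although the troponin gene TNNT1, which was not on that list, was expressed. The sum of the listed markers ran from 0.732 to 2.02 FPKM in siCtrl and from 0.874 to 2.07 FPKM in siNUF2 cells. The 7 fibroblast markers summed to 0.634 to 5.00 FPKM in siCtrl and to 1.05 to 6.60 FPKM in siNUF2 cells. The highest of them was COL3A1 at a mean of 1.01 FPKM, and PDGFRB, PDGFRA and DCN were under 1 FPKM in every library. The 4 leukocyte markers summed to 5.72 to 9.51 FPKM in siCtrl and 5.85 to 7.82 FPKM in siNUF2 cells. A mean of 1 FPKM or more was reached by 2 of them, with CD68 the highest at 5.51 FPKM. PTPRC and CD3E were under 1 FPKM in every library. In bulk RNA, fewer cells of a type and less RNA per cell cannot be told apart.

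TPM4 has 3 annotated start sites in RefSeq (GRCh38.p14), and the 250 bases before a pair of them are printed because TPM4 is the member that differed between the groups. The first site, at position 16067538 of chromosome 19, is the most upstream of the 3, and the second, at position 16076495, is the start of the canonical TPM4 transcript in GENCODE release 44. The sequences are given 5′ to 3′ on the plus strand, with capitals marking a CArG box (the binding motif of serum response factor, SRF) or a GC box (GGGCGG or its reverse complement).
TPM4 first start, chr19:16067288-16067537: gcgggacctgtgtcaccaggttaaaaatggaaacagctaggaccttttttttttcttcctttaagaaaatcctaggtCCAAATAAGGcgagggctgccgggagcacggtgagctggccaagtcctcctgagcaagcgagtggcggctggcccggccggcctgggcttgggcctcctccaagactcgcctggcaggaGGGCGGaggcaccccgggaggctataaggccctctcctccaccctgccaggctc
TPM4 second start, chr19:16076245-16076494: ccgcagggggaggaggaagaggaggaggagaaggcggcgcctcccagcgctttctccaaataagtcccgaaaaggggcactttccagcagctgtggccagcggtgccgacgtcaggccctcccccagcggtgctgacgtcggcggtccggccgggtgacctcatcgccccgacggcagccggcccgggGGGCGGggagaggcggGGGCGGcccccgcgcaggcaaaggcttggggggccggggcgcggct

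RefSeq windows of 300 bases (250 before to 50 after a start) were found for all 4 genes, 8 windows in all. Sequence outside them was not searched. The TPM1 window belongs to a start at 63048489, whereas the gene begins upstream, at 63042632. The most upstream TPM3 window belongs to a start at 154183218, whereas the gene, on the minus strand, reaches 154192105. The CArG box, at -173 of the first TPM4 start, was the only one in the 8 windows of the family, and 1.29% of all 35116 windows hold one. At least 1 GC box was present in 8 of the 8 windows, against 45% of all windows. The TPM2 windows overlap and share GC boxes, so they are not separate cases. The GC content of the windows ran from 48.3% (TPM3, second window) to 78.3% (TPM1). The share among windows of like GC content was not computed. Neither CATTCC (the MCAT motif of TEAD factors, held by 14.0% of all windows) nor TATAAA (the TATA box, 11.5%) was found in the 8 windows on either strand. Only exact matches were counted (for the CArG box, CC and GG around A or T bases). Near matches to a motif were not searched. These matches describe letters in the windows and say nothing of binding, and the deposited values do not tell which start was used.

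TPM4 (ENSG00000167460, chromosome 19 from 16067021 to 16103002, plus strand) was at 24.9, 20.5 and 29.4 FPKM in the siCtrl libraries (numbers 1, 2 and 3) and at 76.5, 60.6 and 80.1 FPKM in the siNUF2 libraries. The groups did not overlap: the lowest siNUF2 library held 2.06 times the FPKM of the highest siCtrl library. The mean went from 24.9 ± 4.49 FPKM (SD, n = 3) in siCtrl to 72.4 ± 10.4 FPKM (SD, n = 3) in siNUF2 cells, 2.91 times the control level. The counts of TPM4 ran from 20480 to 27074 in siCtrl and from 60248 to 73303 in siNUF2 cells. In edgeR the log2 fold change was 1.56 (standard error 0.159). With libraries of the same replicate number set against each other, the FPKM ratio was 3.08, 2.96 and 2.72 for numbers 1, 2 and 3. Library 2 was the lowest of its group for TPM4 in siCtrl and in siNUF2 cells alike.

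TPM1 (ENSG00000140416, chromosome 15 from 63042632 to 63071915, plus strand), the gene of α-tropomyosin in muscle that also gives cytoskeletal isoforms, was at 21.6, 20.9 and 27.7 FPKM in siCtrl cells and at 19.4, 20.8 and 24.0 FPKM in the siNUF2 libraries. The ranges overlapped, and the means were 23.4 ± 3.72 and 21.4 ± 2.34 FPKM (SD, n = 3 each). Its log2 fold change was -0.11 (standard error 0.138). The third library was the highest of its group on both sides.

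TPM2 (ENSG00000198467, chromosome 9 from 35681992 to 35690056, minus strand), which encodes β-tropomyosin, was the lowest member in every library by FPKM. It was at 6.84, 7.52 and 8.15 FPKM in siCtrl cells and at 5.96, 9.42 and 7.06 FPKM in the siNUF2 libraries. The siNUF2 values enclosed the siCtrl values, and its log2 fold change was 0.02 (SE 0.184). The SD was 8.73% of the mean in siCtrl and 23.6% in siNUF2 cells, on 1474 to 2413 counts per library.

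TPM3 (ENSG00000143549, chromosome 1 from 154155304 to 154192105, minus strand), the most even member, was at 29.5, 28.7 and 31.4 FPKM in siCtrl cells and at 30.6, 26.8 and 31.6 FPKM in the siNUF2 libraries. The group means were 29.9 ± 1.38 and 29.7 ± 2.54 FPKM (SD, n = 3 each), and the log2 fold change was 0.01 (standard error 0.0949). These values do not show that TPM1, TPM2 or TPM3 stayed the same, only that any difference lay within the spread of the libraries.

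**Figure D1:**
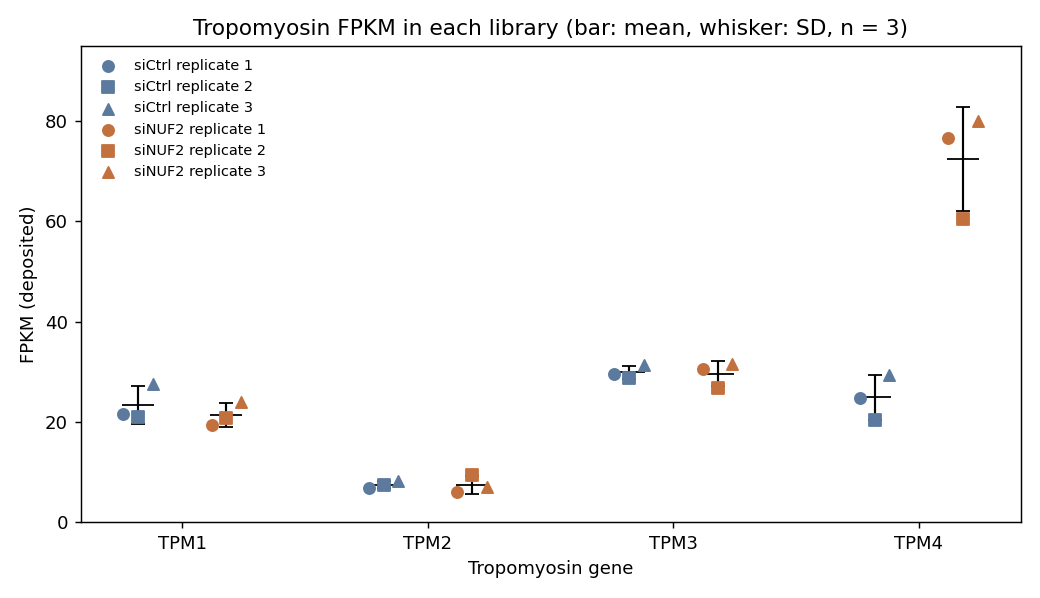
FPKM of each tropomyosin gene (y axis) in the 3 siCtrl and 3 siNUF2 libraries, with 1 symbol per replicate number, the group mean as a bar and the SD as a whisker. For TPM4 the siNUF2 libraries sit between 60.6 and 80.1 FPKM, above the siCtrl libraries at 20.5 to 29.4 FPKM, whereas the groups overlap for TPM1, TPM2 and TPM3.

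With edgeR's quasi-likelihood test (Benjamini-Hochberg adjusted p under 0.05), 1 of the 4 members, TPM4, passed the threshold, against 3.99% of all genes tested, and 1.53% of all genes tested passed it as higher in siNUF2 cells. The same member alone passed with the replicate number as a block, a fit in which 14.5% of all genes passed. TPM4 was also the only member whose groups did not overlap in FPKM, which held for 23.9% of genes tested in either direction and for 10.5% as higher in siNUF2 cells. As this contrast chose the family, nothing is read from these counts. The median log2 fold change of the 4 members was 0.01, beside 0.01 over all genes tested. By log2 fold change TPM4 was number 3 among the 179 genes called higher and number 11 among all genes tested.

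The composition of the family differed between the groups, with TPM4 the member that differed. The summed FPKM of the 4 genes was 82.8, 77.6 and 96.6 in siCtrl cells and 133, 118 and 143 in siNUF2 cells. The means were 85.7 ± 9.84 and 131 ± 12.7 FPKM (SD, n = 3 each). Without TPM4 the sum was 60.8 ± 5.60 FPKM in siCtrl and 58.6 ± 3.56 FPKM in siNUF2 cells. The 4 genes held 0.116% to 0.146% of all counts in siCtrl and 0.172% to 0.214% in siNUF2 libraries.

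TPM4 took 30.0%, 26.4% and 30.5% of the summed FPKM in the control libraries, whereas the knockdown libraries gave it 57.7%, 51.5% and 56.1%. Its mean share therefore went from 28.9% ± 2.25 to 55.1% ± 3.22 (SD, n = 3 each), a shift of 26.2 percentage points. By FPKM the share of TPM3 moved the furthest down, from 35.0% ± 2.31 to 22.7% ± 0.502 (SD, n = 3 each). TPM1 went from 27.2% ± 1.30 to 16.4% ± 1.56 and TPM2 from 8.80% ± 0.783 to 5.82% ± 1.91 (SD, n = 3 each). Per kilobase of the canonical transcript, described further on, TPM1 moved the furthest down (-20.5 points) and TPM3 by -4.39 points. A share falls when another member rises, and the FPKM of these 3 genes overlapped between the groups.

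The order of the members changed with TPM4. By FPKM, TPM3 was the highest member in siCtrl cells, with a mean 1.2 times that of TPM4, but the ranges of the pair overlapped, although TPM3 was above TPM4 in 3 of 3 libraries. TPM4 and TPM1 could not be ordered in siCtrl cells, since TPM4 was higher in 2 of 3 libraries and the means differed by 1.07 times. TPM2 was well below, with TPM1 at 3.12 times its mean and no overlap. In siNUF2 cells TPM4 was the highest member at 2.44 times the mean of TPM3, which was at 1.38 times the mean of TPM1, and no neighbours in the order overlapped. The ratio of TPM4 to TPM3 within a library was 0.842, 0.713 and 0.938 in siCtrl and 2.50, 2.26 and 2.54 in siNUF2 libraries.

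How far members can be compared rests on the length behind each FPKM. The length that counts and FPKM jointly imply was 16019 nt for TPM1, 3712 nt for TPM2, 17631 nt for TPM3 and 14397 nt for TPM4, averaged over the libraries. It follows the union of all annotated exons of each gene, which is 14700, 3183, 15130 and 12375 nt in GENCODE release 44. Over 11699 genes the implied length was 1.16 times the exon union (quartiles 1.16 and 1.17) and 1.59 times the canonical transcript (quartiles 1.27 and 2.19). The table lists 30 transcripts for TPM1, 10 for TPM2, 21 for TPM3 and 26 for TPM4. The canonical transcripts are 1217, 1190, 7064 and 2474 nt long, so a deposited FPKM spreads the reads of a TPM1 transcript over a far longer gene model than it does for TPM2. The implied length of TPM4 was 14399 nt in siCtrl and 14394 nt in siNUF2 cells, and for each member the siNUF2 mean was between 99.97% and 100% of the siCtrl mean. Between libraries the implied length of TPM4 ran from 14225 nt (siNUF2 library 1) to 14522 nt (siNUF2 library 3). The same libraries were the lowest and highest for the other members. Counts and FPKM are thus the same measurement up to a length per gene and a factor per library. Neither carries information on which isoforms were made, and the source of the 1.16 was not traced.

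**Figure D2:**
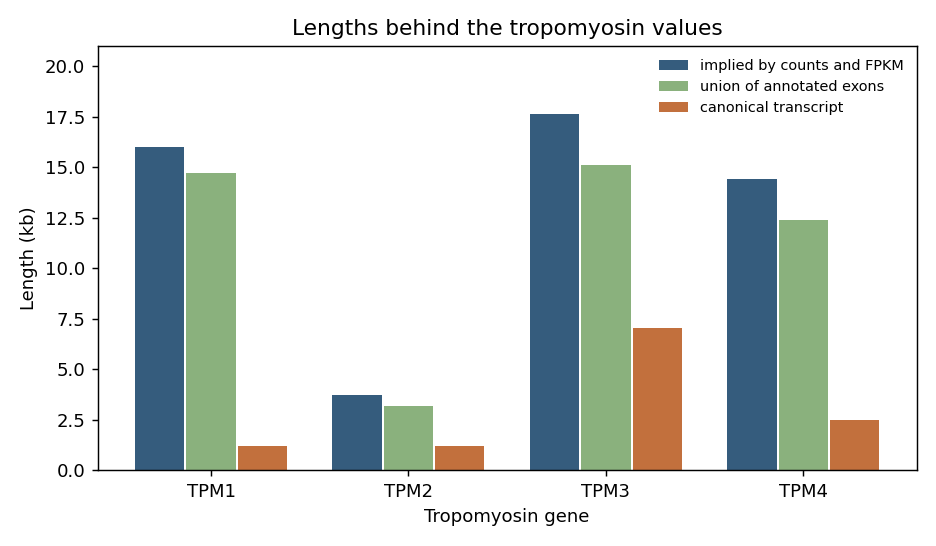
Length in kilobases (y axis) for each tropomyosin gene: the length implied by its counts and FPKM (mean of 6 libraries), the union of its annotated exons and its canonical transcript. The implied length follows the exon union, and for TPM1 it is 16019 nt against a canonical transcript of 1217 nt.

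Scaled instead by the canonical transcript, a choice made after the data were seen, the levels were in CPM (counts scaled to library size) per kilobase. On that scale TPM1 was the highest member in siCtrl cells at 308 ± 50.8 (SD, n = 3), followed by TPM4 at 145 ± 26.7, TPM3 at 74.6 ± 3.80 and TPM2 at 23.4 ± 2.20. In siNUF2 cells TPM4 was the highest at 421 ± 60.5, followed by TPM1 at 282 ± 33.6, TPM3 at 74.0 ± 6.38 and TPM2 at 23.3 ± 5.61 (SD, n = 3 each). No neighbours overlapped in either order. The share of TPM4 then went from 26.2% ± 1.72 to 52.5% ± 3.58, a shift of 26.2 percentage points, close to that by FPKM, whereas the shift of TPM1 was -20.5 points in place of -10.8. Which forms 8505C cells make was not measured, and the order of TPM1, TPM3 and TPM4 in siCtrl cells depends on the length used. The place of TPM4 as the highest member of siNUF2 cells and of TPM2 as the lowest held on both scales.

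**Figure D3:**
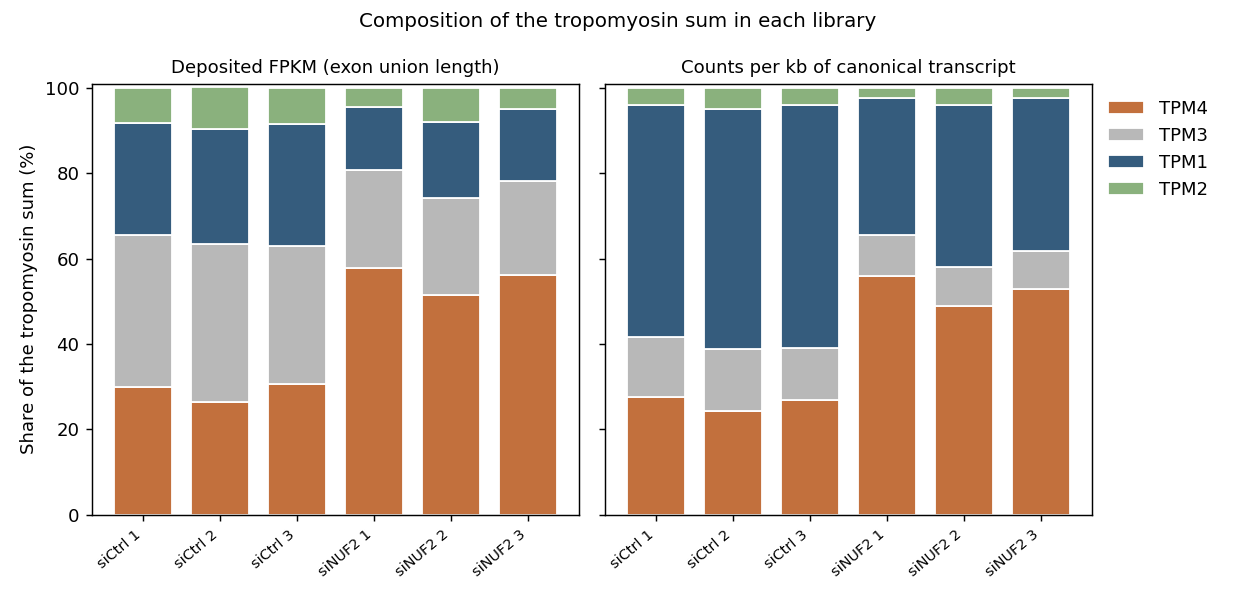
Share of each gene (%, y axis) in the tropomyosin sum for each library, from deposited FPKM on the left and from counts per kilobase of the canonical transcript on the right. TPM4 holds 26.4% to 30.5% of the sum in siCtrl and 51.5% to 57.7% in siNUF2 libraries by FPKM, and the split between TPM1 and TPM3 differs between the panels.

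Rows that could share reads with the members held few counts. The table names 4 TPM3 pseudogenes, TPM3P6, TPM3P7, TPM3P8 and TPM3P9, whose summed counts were 1.89% to 3.04% of those of TPM3 in the same library. TPM3P9 was the only one tested and had a log2 fold change of 0.13 (SE 0.225, edgeR adjusted p = 0.823). TPM1 overlaps TPM1-AS on the opposite strand, with 41 to 317 counts, at most 1.33% of the TPM1 count. TPM4 overlaps AC008894 on the opposite strand, with 78 to 225 counts, at most 0.831% of the TPM4 count. No strand setting is given in the sources used here, so reads of a gene and its antisense partner cannot be told apart, and reads that the members share with each other through conserved exons were not resolved.

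The 3′ untranslated region (UTR) of TPM4 separates it from the other members by one word that an earlier analysis of these libraries had picked out, as the 7-base word whose presence went most with a higher log2 fold change. The word TCGGAGA occurs once in the longest annotated 3′ UTR of TPM4 (1694 nt, GENCODE release 44), and it is printed with its surroundings, the word in capitals.
TPM4 3′ UTR, chr19:16101482-16101510, plus strand: aatattttgtaTCGGAGAagctttgagca

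TCGGAGA was present 0 times in the longest 3′ UTRs of TPM1 (3493 nt), TPM2 (716 nt) and TPM3 (6124 nt), and 222 of 10174 tested genes with a 3′ UTR (2.18%) hold it. Among these 222 genes, TPM4 included, 26 (11.7%) were called higher and 3 (1.35%) lower, and the median log2 fold change was 0.15. Among the genes without the word 1.49% were called higher and 2.82% lower, with a median of -0.00108. TATGGAA, the word that pairs with the seed (bases 2 to 8) of the NUF2 siRNA, was present 0 times in the longest 3′ UTRs of all 4 members, and 16.1% of the 10174 genes hold it. Of the genes with TATGGAA 10.2% were called lower, against 1.37% of those without it. As TCGGAGA was picked on these libraries, these shares are a description, and the part of either word in the level of TPM4 was not tested. The sequence of the control siRNA is not given in the sources used here, so TCGGAGA could not be set against its seed. A gene called higher in siNUF2 cells is equally one that is lower in siCtrl cells.

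Beyond the family, 8 lists of 119 genes for actin and its partners were examined, of which 95 genes were tested. By edgeR, adjusted over all genes tested, 2 of the 95 rose and 2 fell, 4.21% in all, beside 3.99% of all genes tested. The median log2 fold change of the lists was -0.00935. With the replicate number as a block 7 rose and 12 fell, 20.0%, beside 14.5% of all genes in that fit. With any single library left out, 0 or 1 of the listed genes passed, while the calls over all genes fell from 468 to between 124 and 251. The log2 fold changes of the 4 called genes kept their direction in these fits: 0.41 to 0.47 for PPP1CB, 0.55 to 0.79 for ELK4, -0.76 to -0.53 for ENAH and -0.72 to -0.50 for ARPC1A. Of the 95 genes 21 (22.1%) had an unadjusted p under 0.05 in edgeR, beside 18.2% of all genes tested, and DESeq2 called 9 (9.47%), beside 8.29% of all genes tested.

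Actin is the filament on which tropomyosin lies, and both cytoplasmic forms were abundant. They were the only 2 of 6 actins tested, and 0 passed in edgeR, with 0 at an unadjusted p under 0.05 and 0 called by DESeq2. ACTB, β-actin, was at 741 ± 65.9 FPKM in siCtrl and 846 ± 87.9 FPKM in siNUF2 cells (log2 fold change 0.21, edgeR adjusted p = 0.387). ACTG1, γ-actin, was at 841 ± 116 and 640 ± 129 FPKM (SD, n = 3 each), a log2 fold change of -0.37 with an adjusted p of 0.297 in edgeR, and 0.0145 with the replicate block. The muscle actins ACTA1, ACTA2, ACTC1 and ACTG2 were under the filter.

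Of the proteins that bind tropomyosin at filament ends or sides, 4 of 11 genes were tested and 0 passed in edgeR with or without the block, 0 had an unadjusted p under 0.05 and DESeq2 called 0. The calponins CNN3 and CNN2, which bind actin beside tropomyosin, were at 56.0 and 37.3 FPKM in siCtrl cells and had log2 fold changes of -0.11 and -0.12 (edgeR adjusted p = 0.833 and 0.836). TMOD3, the tropomodulin that caps the pointed end of non-muscle filaments together with tropomyosin, had one of 0.15 and CALD1, caldesmon, one of 0.12, both named outside the naming rule. Of 8 troponins, the calcium switch that muscle places on tropomyosin, 2 were tested and 0 passed in edgeR, with 0 at an unadjusted p under 0.05 and 0 called by DESeq2. TNNT1 was expressed, at 32.7 ± 8.46 and 32.3 ± 11.2 FPKM (SD, n = 3 each), and TNNI3 lay near the filter at 1.15 and 1.22 FPKM.

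Among 11 tested genes of myosin II and its regulators, 1 rose (9.09%, beside 3.99% of all genes tested). PPP1CB, the catalytic subunit of myosin phosphatase, went from 21.4 ± 0.946 to 28.6 ± 0.551 FPKM (SD, n = 3 each), a log2 fold change of 0.43 (SE 0.0841, edgeR adjusted p = 0.0311). PPP1R12A, the targeting subunit of that phosphatase, named outside the naming rule, went the other way, from 4.365 to 3.125 FPKM. Its log2 fold change was -0.46, with an adjusted p of 0.0993 in edgeR and 0.0185 with the replicate block. RHOA and MYL12B, the most abundant genes of this list, had log2 fold changes of -0.06 and -0.05 (edgeR adjusted p = 0.812 and 0.871). With the block 1 gene of this list rose and 2 fell (27.3%, beside 14.5% of all genes). In edgeR 3 (27.3%) had an unadjusted p under 0.05, beside 18.2% of all genes, and DESeq2 called 2 (18.2%, beside 8.29%).

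All 32 genes of filament assembly and severing were tested, and 2 fell (6.25%, beside 3.99% of all genes tested). ARPC1A, a subunit of the branching Arp2/3 complex, went from 52.5 ± 7.67 to 33.6 ± 3.89 FPKM (SD, n = 3 each), a log2 fold change of -0.62 (SE 0.136, edgeR adjusted p = 0.0467). It overlaps AC004922 in the table, a row with 0 to 2690 counts against 4442 to 10221 for ARPC1A, so its value is uncertain. ENAH, which elongates filaments at their barbed ends, went from 4.54 ± 0.112 to 2.94 ± 0.510 FPKM (SD, n = 3 each), a log2 fold change of -0.61 (SE 0.131, edgeR adjusted p = 0.0449). The abundant monomer-binding and severing proteins profilin (PFN1) and cofilin (CFL1) had log2 fold changes of -0.14 and -0.10 (edgeR adjusted p = 0.562 and 0.637). With the block 2 genes of this list rose and 4 fell (18.8%, beside 14.5% of all genes). In edgeR 7 (21.9%) had an unadjusted p under 0.05, beside 18.2% of all genes, and DESeq2 called 5 (15.6%, beside 8.29%).

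Of 22 tested cross-linkers and adhesion proteins 0 passed in edgeR, and 3 (13.6%) had an unadjusted p under 0.05, beside 18.2% of all genes. DESeq2 called 0, and 3 fell with the block (13.6%, beside 14.5% of all genes). TAGLN2, a relative of calponin, and MSN, moesin, were the most abundant of them, with log2 fold changes of -0.08 and -0.02 (edgeR adjusted p = 0.789 and 0.954).

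In the axis of SRF, the transcription factor that reads actin dynamics through MRTF cofactors, 1 of 10 tested genes rose. That is 10%, beside 3.99% of all genes tested. ELK4, a ternary complex factor that partners SRF, went from 3.37 ± 0.551 to 5.27 ± 0.182 FPKM (SD, n = 3 each), a log2 fold change of 0.67 (SE 0.130, edgeR adjusted p = 0.0315). EGR1, an immediate-early target, was at 83.9 ± 32.4 and 41.2 ± 17.3 FPKM (SD, n = 3 each), a log2 fold change of -1.0 with an adjusted p of 0.174 in edgeR and 0.00113 with the replicate block. FOS, the other abundant gene of the list, had one of -0.25 (edgeR adjusted p = 0.892). With the block 2 genes rose and 2 fell (40%, beside 14.5% of all genes). In edgeR 4 (40%) had an unadjusted p under 0.05, beside 18.2% of all genes, and DESeq2 called 1 (10%, beside 8.29%). SRF itself, named outside the naming rule, had a log2 fold change of 0.15 (edgeR adjusted p = 0.659).

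Of 12 tested RNA-binding proteins that regulate alternative exons, 0 passed in edgeR, and 4 (33.3%) had an unadjusted p under 0.05, beside 18.2% of all genes. DESeq2 called 1 (8.33%, beside 8.29%), and 2 rose with the block (16.7%, beside 14.5% of all genes). PTBP1, which represses muscle exons of tropomyosin transcripts, was at 50.2 ± 4.13 and 60.5 ± 4.96 FPKM (SD, n = 3 each), a log2 fold change of 0.29 with an adjusted p of 0.182 in edgeR and 0.0207 with the replicate block. SRSF1, a general splicing activator, had a log2 fold change of 0.09 (edgeR adjusted p = 0.631).

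**Figure D4:**
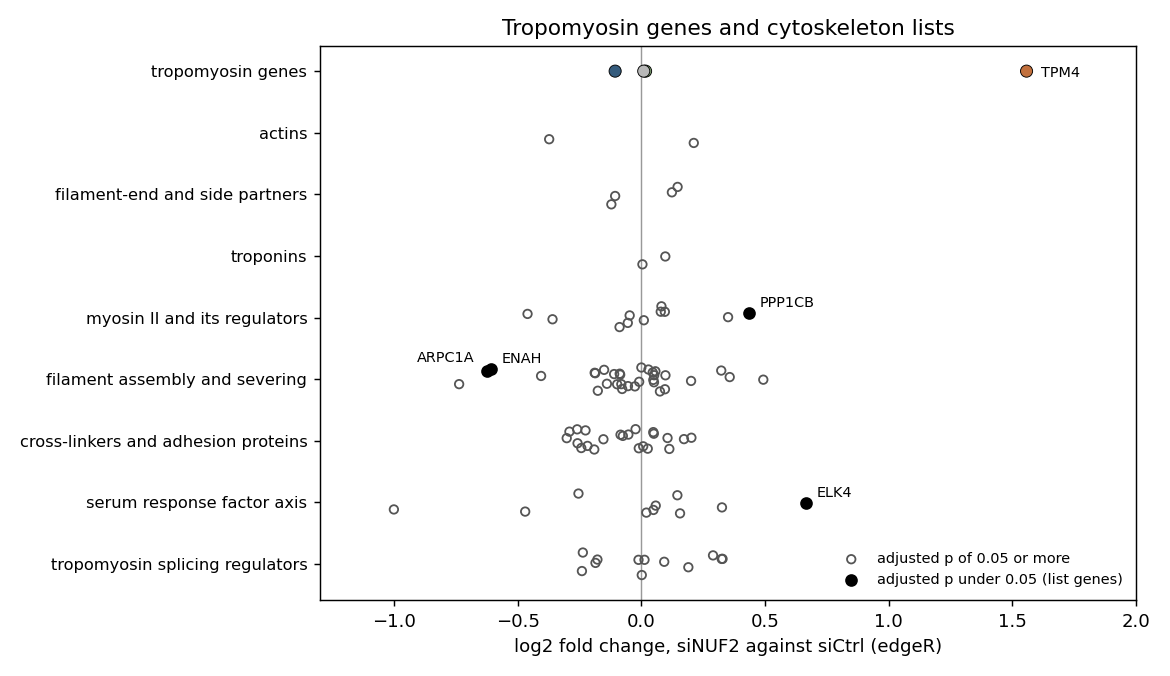
Log2 fold change of siNUF2 against siCtrl (x axis, edgeR) for the 4 tropomyosin genes, drawn as a description, and for the tested genes of each cytoskeleton list, with 1 point per gene and a random vertical offset. Filled black points mark the 4 list genes with an adjusted p under 0.05. TPM4 is at 1.56 and the lists run from -1.0 to 0.67. As the rise of TPM4 in this contrast chose the family, nothing is read from its place beyond them.

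The genes whose pattern over the 6 libraries was most like that of TPM4, by Pearson correlation of log2(TMM-scaled CPM + 1) among the genes tested, were CCDC32 (r = 0.9965), NUTM2A-AS1 (0.9956), MLEC (0.9953), CDK9 (0.9951) and STX12 (0.9948). CCDC32 was at 1.41, 1.22 and 1.58 FPKM in siCtrl cells and at 2.71, 2.40 and 2.61 FPKM in the siNUF2 libraries, with library 2 the lowest of each group, as for TPM4. The log2 fold changes of these 5 genes were between 0.52 and 0.92, smaller than that of TPM4. The closest genes to TPM1 were SFN (0.997) and ADCK2 (0.993), to TPM2 PEX6 (0.990), and to TPM3 TPST2 (0.990) and ZC3H12A (0.989). All points of these correlations share the same 6 libraries in 2 groups, and the closest of 11725 genes are high by selection.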

How the data were processed

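Poly(A) RNA of 6 libraries of 8505C cells (3 siCtrl, 3 siNUF2) was sequenced in paired ends. According to the paper's methods, reads were checked with fastp, aligned to GRCh38 with HISAT2, and assembled and calculated with StringTie; versions, annotation release and strand setting are not given in the sources used here. The authors deposited FPKM, scaled by gene length and library size, and raw counts per gene; the tool that made the counts is not given in the sources used here. All 12 columns of values were used.

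Genes averaging 1 FPKM or more were tested on the deposited counts with edgeR 4.0.16 (quasi-likelihood test, TMM, R 4.3.3), with Benjamini-Hochberg adjustment over 11725 genes. An F-test on log2(FPKM + 1), after the study's methods, was an alternative, as were limma 3.58.1, DESeq2 1.42.0, other filters and scalings, a replicate block and leaving out each library. Total counts were 61257859 to 69755291 per library. The Poisson error of a member's lowest count was 0.554% (TPM3) to 2.60% (TPM2), against a replicate coefficient of variation of at least 4.63% (TPM3) and 8.73% (TPM2); it covers counting error only. Libraries sharing a replicate number deviated together, with correlations of deviations from the group means of 0.419 to 0.539, against -0.316 to -0.126 for other pairs. Deviations cancel out within a group, so the negative values of the other pairs are no separate evidence. The numbers were read as pairing the libraries from the data alone, as the labels do not say what a number shares. The main fit leaves this pairing out, and the replicate block takes it in.

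The members and lists were chosen with earlier results of these data known. Named from each list were genes past the threshold (at most 4) and the 2 most abundant, with exceptions marked; some items are not reported here. Promoters are from RefSeq and 3′ UTRs, of at least 50 nt, from GENCODE release 44. The code of the main edgeR fit was tested on simulated data, and the other code was not. Python 3.11.15, pandas 2.3.3 and matplotlib 3.10.9 were used.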

Additional observations from a re-analysis of the deposited data

How the results depend on the processing

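TPM4 had a log2 fold change of 1.43 to 1.70 under all 14 alternatives. It passed the threshold in 13, the exception being the F-test on log2(FPKM + 1) after adjustment. As its rise in this contrast chose the family, these fits describe TPM4 and are no separate support for its rise. The log2 fold changes of TPM1 (-0.20 to 0.03), TPM2 (-0.19 to 0.16) and TPM3 (-0.04 to 0.07) moved by less than the spread between replicates and passed in 0 of the 14. None of these keeps its sign throughout. The number of genes called moved from 468 to 972 with DESeq2, 188 with no filter, 1705 with the replicate block, 78 with the F-test, and 124 to 251 with 1 library left out; the number of listed cytoskeleton genes called moved from 4 to 9 with DESeq2, 19 with the replicate block, 0 with no filter, with the F-test and with limma on log2(FPKM + 1) or log2(FPKM + 0.1), and 0 to 1 with 1 library left out. A fit with 1 library left out also has fewer samples, and its calls over all genes differed with the library, from 124 without siNUF2 replicate 1 to 251 without siNUF2 replicate 3. The cause of these shifts was not tested. The fall in share (siNUF2 minus siCtrl) depended on the length used: per kilobase of the canonical transcript it was -20.5 points for TPM1, -1.32 for TPM2 and -4.39 for TPM3, against -10.8, -2.98 and -12.4 by FPKM, and by summed counts it was -0.708 for TPM2. The shift of TPM4 stayed within its replicate spread under the alternatives tried. With 1 library left out, its shift ran from 24.9 to 28.0 points.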
